A study of Mus musculus with 13 samples.

Results

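The genes described here are 10 costimulatory molecules through which dendritic cells and T cells exchange activating signals, measured in sorted splenic CD205+CD8+ dendritic cells of mice. They are Cd40, Cd80, Cd86, Cd83, Icosl, Tnfsf4, Tnfsf9, Cd70, Tnfrsf9 and Tnfrsf4, chosen by name from the 22180 genes that could be measured. Each has 1 probe set with its gene symbol alone, so that no choice between probe sets had to be made. C57Bl/6 littermates, all labelled male, were given a subcutaneous B16 melanoma that secretes Flt3L at an age of 6 weeks, in every group. After 5 days of tumour growth they received muramyl dipeptide (MDP, 50 ug in 100 ul) or PBS alone into the peritoneum, and spleens were taken 24 h after that injection. MDP is a piece of the bacterial cell wall that the cytosolic receptor NOD2 detects, and Flt3L drives the growth of dendritic cells. Cells were sorted by surface CD103 only after the injection, which gave 3 arrays of MDP CD103 high cells, 3 of PBS CD103 high cells, 3 of MDP CD103 low cells and 4 of PBS CD103 low cells. The 4 groups answer whether costimulatory transcripts differ 24 h after MDP within each CD103 gate, and between the gates within each treatment.

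A T cell that meets its antigen needs further signals from the presenting cell to divide and survive. CD80 and CD86 give the classical one by binding CD28 on the T cell, and both also bind the inhibitory receptor CTLA-4. CD40 works in the other direction: CD40 ligand on the T cell engages CD40 on the dendritic cell, which raises its costimulatory proteins and its cytokine output through TRAF adaptors and NF-kB. Ligands of the TNF family, OX40L (Tnfsf4), CD137L (Tnfsf9) and CD70, sustain T cells after their first activation, and ICOS ligand (Icosl) binds ICOS. Tnfrsf4 and Tnfrsf9 encode OX40 and CD137, receptors best known on activated T cells. Dendritic cells with high CD80, CD86 and CD40 are called mature, and they usually also carry CCR7, the receptor that guides them into T cell zones.

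The values are log2 signals normalised across arrays by RMA, so a difference of 1 is a 2-fold change. The number of arrays limits the precision, and the median standard error over all genes was 0.110 between MDP and PBS in CD103 high cells and 0.103 in CD103 low cells. The labels do not say that the arrays are separate mice, and a p-value here speaks of the spread among these arrays alone. Markers of type 1 conventional dendritic cells, the lineage of CD8+ dendritic cells, were high throughout: all 14 measured markers, Cd8a, Ly75 (CD205), Irf8 and Batf3 among them, lay above the background range in every group. That range is the 95th percentile of 1105 olfactory receptor genes, 5.12, while the median over all genes was 5.27. Xist, the RNA of the silenced X chromosome of female cells, split the arrays into 7 with values of 10.98 to 11.21 and 6 with 4.47 to 6.69, although every mouse was labelled male. The first count was 2 of 3 arrays in MDP CD103 high cells, 2 of 3 in PBS CD103 high cells, 1 of 3 in MDP CD103 low cells and 2 of 4 in PBS CD103 low cells. Itgae, the gene of CD103, averaged 11.35 ± 0.21 in MDP CD103 high cells (SD, n = 3), 10.15 ± 0.08 in PBS CD103 high cells (n = 3), 10.13 ± 0.52 in MDP CD103 low cells (n = 3) and 7.92 ± 0.41 in PBS CD103 low cells (n = 4). MDP CD103 low cells thus had about as much Itgae as PBS CD103 high cells. One array, MDP CD103 low replicate 1, stood apart in the costimulatory genes, and results are given with and without it.

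Of the 10 genes, 8 had a mean above the background range. Tnfsf4, with a mean of 4.00, and Cd70, with a mean of 3.12, lay inside it on all 13 arrays, so their differences are those of signals near background. Tnfrsf9, with a mean of 5.27, lay above it on 11 of 13 arrays. Cd86 was the steadiest, from 11.11 to 11.25 over all arrays, a range of 0.143. Tnfrsf4 was the most variable, from 6.34 to 9.08, a range of 2.75. For 9 of the 10 genes the mean over all arrays was lowest in MDP CD103 high cells, and Tnfsf4 was the exception. Without MDP CD103 low replicate 1, Cd86 was an exception as well, at 11.13 in MDP CD103 low cells and 11.15 in MDP CD103 high cells. The order of the 4 groups was seldom sharp. For Cd80, MDP CD103 high cells averaged 9.64 ± 0.12 (SD, n = 3), MDP CD103 low cells 9.93 ± 0.34 (n = 3), PBS CD103 low cells 9.94 ± 0.06 (n = 4) and PBS CD103 high cells 10.27 ± 0.17 (n = 3), and the arrays of MDP CD103 low cells overlapped those of the other 3 groups.

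**Figure D1:**
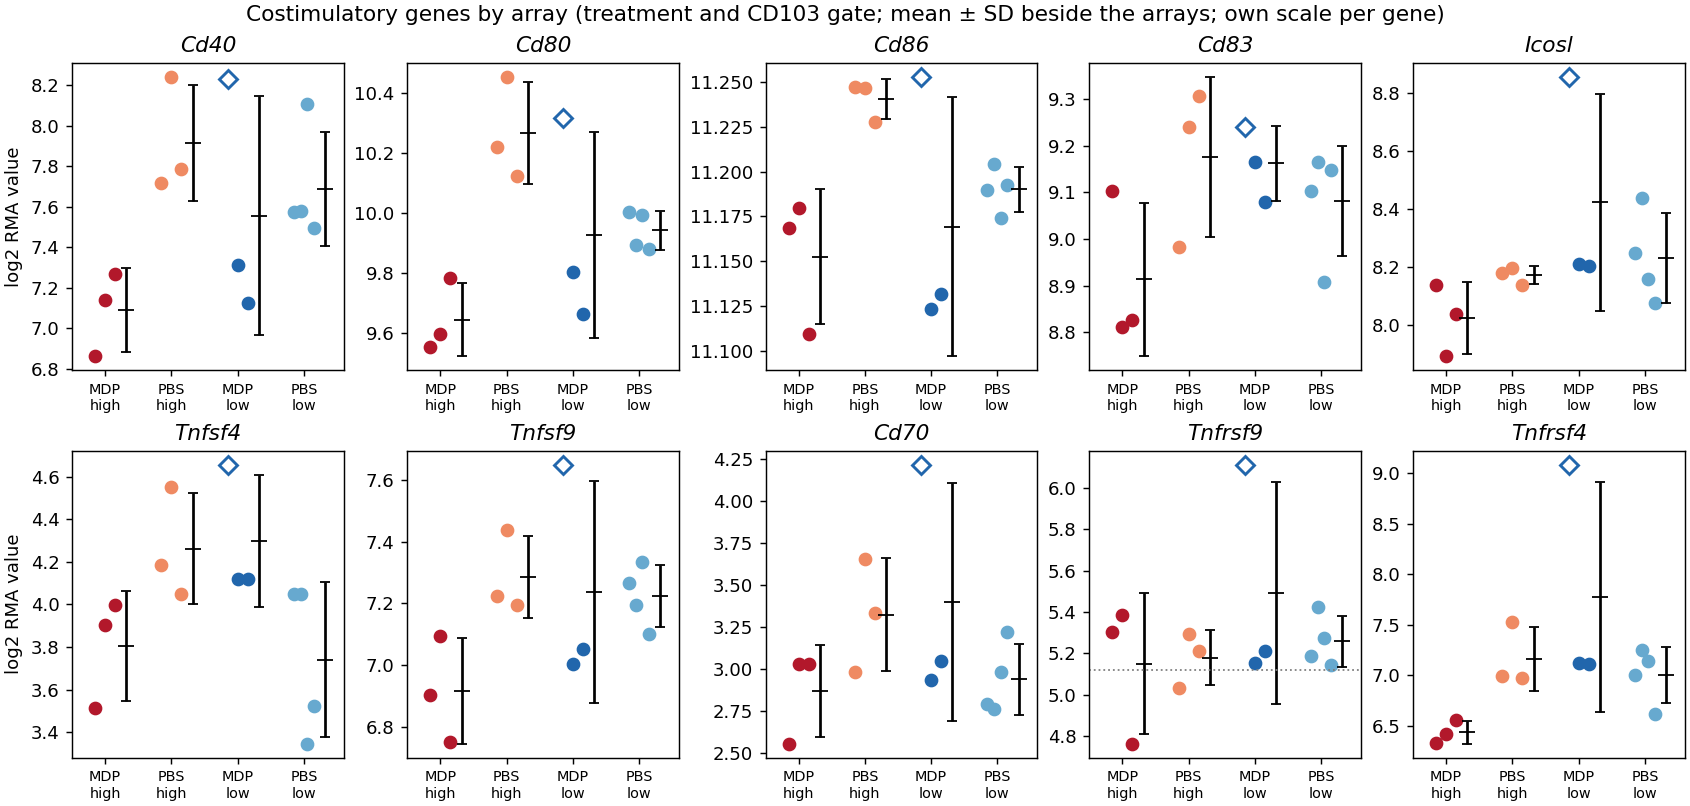
Log2 RMA value of each costimulatory gene (vertical axis, own scale per gene) on each of the 13 arrays, by treatment and CD103 gate, with the group mean and SD beside the points. The open diamond is MDP CD103 low replicate 1, the highest array for 7 of the 10 genes, and the dotted line, in reach for Tnfrsf9 only, is the upper end of the background range (5.12).

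In CD103 high cells, Cd80 fell after MDP. This gene (probe set 17325608, Entrez gene 12519) encodes the CD28 ligand that dendritic cells raise as they mature. Its log2 values were 9.55, 9.60 and 9.78 in MDP CD103 high replicates 2, 3 and 4, against 10.22, 10.45 and 10.12 in PBS CD103 high replicates 4, 5 and 6. Every MDP array was thus below every PBS array. The difference was -0.62 ± 0.14 (SE), a 1.54-fold lower level, with a 95% interval of -0.93 to -0.31 and a limma adjusted p of 0.0465. In all, 1 of the 10 genes was lower and 0 were higher past the threshold of an adjusted p of 0.05, where 1.82% of all genes were called and 0.397% were called lower. With the replicate number within treatment as a block the adjusted p was 0.0534, with the arrays of the CD103 high cells alone 0.0544, and with Xist as a covariate 0.0618. Leaving out 1 array kept the call without MDP CD103 low replicate 1 or replicate 3, and ended it without any of the other 11, with an adjusted p of up to 0.185.

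When MDP CD103 low replicate 1 was left out, Cd40 and Tnfrsf4 were also called lower in CD103 high cells after MDP. That array is in neither group of this comparison, so the differences stayed the same and only the estimate of the spread, shared by all groups, changed. It was above the mean of the other arrays of its group by 1.96 for Tnfrsf4 and 1.01 for Cd40. Leaving it out thus lowers the spread of the very genes tested, and the added calls are no independent support. Cd40 (probe set 17379659, Entrez gene 21939), the receptor for T cell help, had log2 values of 6.86, 7.14 and 7.27 in MDP CD103 high cells, against 7.72, 8.24 and 7.78 in PBS CD103 high cells. The arrays did not overlap. The difference was -0.82, a 1.77-fold lower level, with an SE of 0.25 and an adjusted p of 0.150 over all arrays, and an SE of 0.18 and an adjusted p of 0.0306 without that array. Tnfrsf4 (probe set 17422859, Entrez gene 22163), the gene of OX40, had values of 6.34, 6.42 and 6.56 in MDP CD103 high cells, against 6.99, 7.53 and 6.97 in PBS CD103 high cells. Here too every MDP array lay below every PBS array. The difference was -0.73, a 1.65-fold lower level, with an SE of 0.40 and an adjusted p of 0.481 over all arrays, and an SE of 0.17 and an adjusted p of 0.0429 without that array. For Cd80 the SE was then 0.10 and the adjusted p 0.00589. These 3 called genes stand beside a background of 2.68% of all genes, or 0.915% called lower. Leaving out each of the 12 other arrays as well, Cd80 was called 12 times, Cd40 8 times and Tnfrsf4 3 times.

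The other CD28 ligand differed by less and did not pass. Cd86 (probe set 17330203, Entrez gene 12524) had values of 11.17, 11.18 and 11.11 in MDP CD103 high cells, against 11.25, 11.25 and 11.23 in PBS CD103 high cells. The groups did not overlap, but the difference was -0.09 ± 0.06 (95% interval -0.22 to 0.05, adjusted p = 0.612). The lower end of this interval, -0.22, did not reach the 95% interval of Cd80, -0.93 to -0.31. The 2 genes were not tested against each other. Cd83 (probe set 17286905, Entrez gene 12522), a maturation marker that keeps CD86 and MHC class II on the surface, differed by -0.26 ± 0.11 (adjusted p = 0.314). Its arrays overlapped, at 8.81 to 9.10 in MDP CD103 high cells and 8.98 to 9.31 in PBS CD103 high cells. Icosl (probe set 17234786, Entrez gene 50723) differed by -0.15 ± 0.15 (adjusted p = 0.750).

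Among the TNF family ligands, Tnfsf9 (probe set 17338959, Entrez gene 21950), the partner of CD137, had values of 6.90, 7.10 and 6.75 in MDP CD103 high cells, against 7.23, 7.44 and 7.19 in PBS CD103 high cells. The arrays did not overlap, and the difference of -0.37 ± 0.15 did not pass (adjusted p = 0.307, and 0.0918 without MDP CD103 low replicate 1). The 2 ligands near background did not pass either: Tnfsf4 (probe set 17218701, Entrez gene 22164) differed by -0.46 ± 0.22 (adjusted p = 0.394) and Cd70 (probe set 17346516, Entrez gene 21948) by -0.45 ± 0.29 (adjusted p = 0.557). For Tnfrsf9 (probe set 17421981, Entrez gene 21942) the difference was -0.03 ± 0.22 (95% interval -0.51 to 0.45), and its arrays overlapped widely, at this precision leaving its direction unknown. All 10 differences were below 0, with a median of -0.41, against -0.01 over all genes, of which 53.7% were below 0. The arrays of 6 of the 10 genes, Cd40, Cd80, Cd86, Tnfrsf4, Tnfsf4 and Tnfsf9, did not overlap and were lower after MDP. Of all 22180 genes, 2228 did not overlap and were lower after MDP, and 19.0% did not overlap when both directions are counted. In such RNA from many cells, fewer cells of a type and less RNA per cell cannot be told apart.

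**Figure D2:**
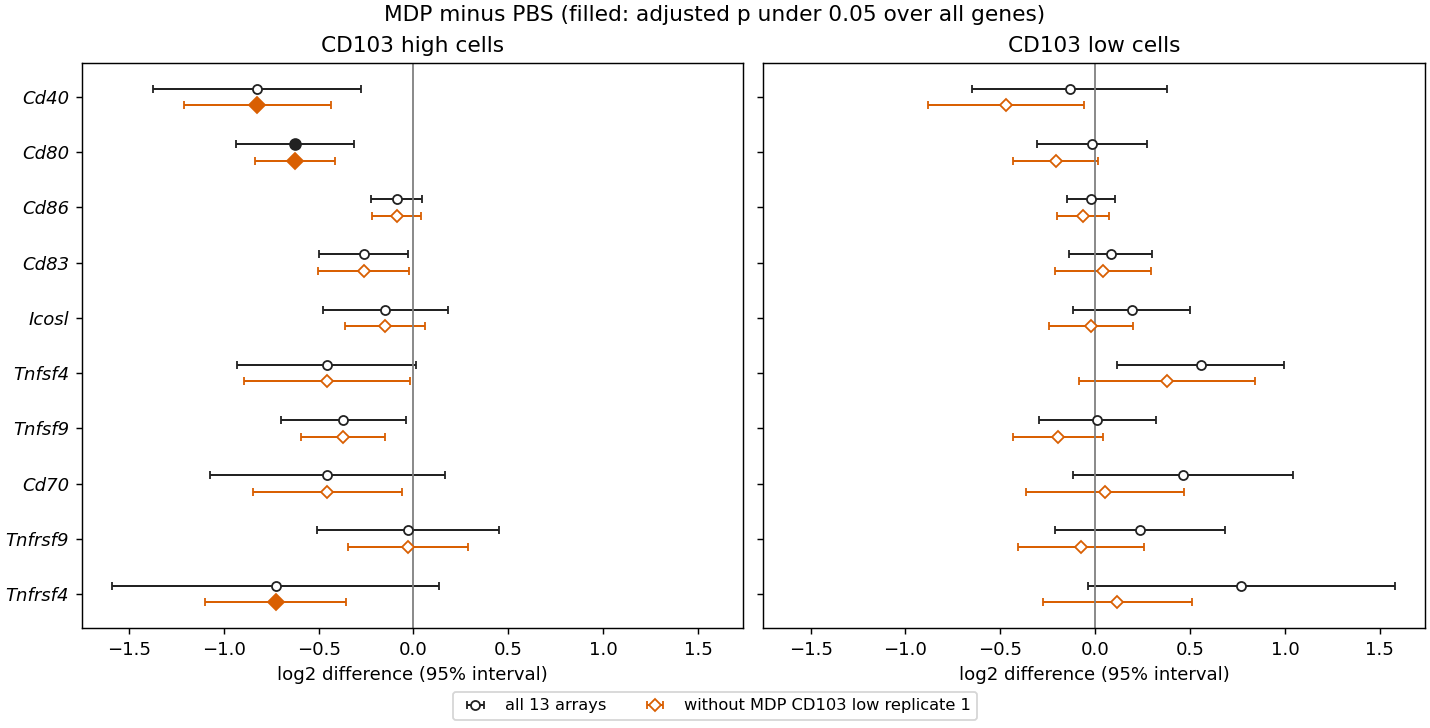
Log2 difference between MDP and PBS (horizontal axis, with 95% intervals) for each costimulatory gene in CD103 high cells and in CD103 low cells, over all 13 arrays (circles) and without MDP CD103 low replicate 1 (diamonds); filled points passed an adjusted p of 0.05. In CD103 high cells all 10 points lie below 0, with Cd80 filled in both settings and Cd40 and Tnfrsf4 without that array, and in CD103 low cells no point is filled.

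RefSeq promoter sequences were matched for 4 of the 10 genes, Cd80, Tnfrsf4, Tnfrsf9 and Icosl, and were not matched for Cd40, Cd70, Cd83, Cd86, Tnfsf4 and Tnfsf9. The 250 bases before the start are shown for the Cd80 and Tnfrsf4 promoters, whose transcripts were lower in MDP CD103 high cells, Tnfrsf4 without MDP CD103 low replicate 1 only, and for the second of 2 starts of Tnfrsf9, which did not pass. They are given on the plus strand of GRCm38.p6, which is also the strand of these genes, at chr16:38458683-38458932 for Cd80, chr4:156013445-156013694 for Tnfrsf4 and chr4:150927749-150927998 for Tnfrsf9. Capitals mark matches to the motifs searched.
Cd80: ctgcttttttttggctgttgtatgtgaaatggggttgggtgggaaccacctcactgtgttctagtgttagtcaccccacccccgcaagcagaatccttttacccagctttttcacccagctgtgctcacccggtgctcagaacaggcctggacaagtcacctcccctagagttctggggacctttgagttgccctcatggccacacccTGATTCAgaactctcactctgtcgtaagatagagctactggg
Tnfrsf4: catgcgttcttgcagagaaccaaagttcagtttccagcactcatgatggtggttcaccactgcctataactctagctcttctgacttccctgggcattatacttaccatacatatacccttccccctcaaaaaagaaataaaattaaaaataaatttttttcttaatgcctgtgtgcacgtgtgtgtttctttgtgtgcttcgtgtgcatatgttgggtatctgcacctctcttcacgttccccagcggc
Tnfrsf9: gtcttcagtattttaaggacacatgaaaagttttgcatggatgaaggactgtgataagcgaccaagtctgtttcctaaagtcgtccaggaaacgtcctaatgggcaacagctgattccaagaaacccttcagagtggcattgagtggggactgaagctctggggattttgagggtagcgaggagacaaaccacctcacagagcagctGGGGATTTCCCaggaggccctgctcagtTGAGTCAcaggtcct
Both strands were searched for the NF-kB consensus, the AP-1 motif TGANTCA, the interferon response motif of 2 GAAA copies with 2 bases between them and the PU.1 motif AGAGGAAG. The Cd80 promoter holds an AP-1 match, TGATTCA, 42 to 36 bases before the start, as 6.75% of 32817 mouse promoters of this length hold such a match. The Tnfrsf9 promoter shown holds overlapping NF-kB matches, GGGGATTTCC and GGGATTTCCC, between 43 and 33 bases before the start, and an AP-1 match, TGAGTCA, at 15 to 9 bases. The window of the first start of Tnfrsf9, not shown, held no match. An NF-kB match stands in 7.25% of these promoters, and also in that of Icosl, while the GAAA pair stands in 2.97% and AGAGGAAG in 3.67%. No motif matched in the window shown for Tnfrsf4. These are matches of letters and not binding sites.

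Genes that act with the costimulatory molecules were described as lists, which were chosen with earlier results of these data known. Of 19 measured adaptors and NF-kB proteins downstream of CD40 and related receptors, 5 were lower and 0 higher in CD103 high cells after MDP. Of these 19, 18 differed by less than 0, with a median of -0.36. Over all genes 0.397% were called lower in this comparison, and 0.915% without MDP CD103 low replicate 1. Birc3, a ubiquitin ligase that holds back the alternative NF-kB pathway, averaged 9.14 ± 0.06 in MDP CD103 high cells and 9.63 ± 0.11 in PBS CD103 high cells (SD, n = 3 each), a difference of -0.49 ± 0.09 (adjusted p = 0.0192). Tnip1, which with the product of Tnfaip3 dampens NF-kB signalling, averaged 7.45 ± 0.12 in MDP CD103 high cells and 8.02 ± 0.10 in PBS CD103 high cells (SD, n = 3 each), a difference of -0.57 ± 0.12 (adjusted p = 0.0260). The other 3, which were picked once their values were known, were Relb, a subunit of alternative NF-kB (-1.07 ± 0.24), Tnfaip3 (-0.63 ± 0.13) and Nfkbib (-0.36 ± 0.08). Without MDP CD103 low replicate 1 the count was 7, with Traf1, an adaptor of TNF receptors (-0.63 ± 0.09, adjusted p = 0.00444), and Map3k14, the kinase that starts the alternative pathway (-0.55 ± 0.09, adjusted p = 0.00920), in addition.

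Some genes of mature, CCR7-type dendritic cells were also lower. The list of 26 measured genes holds none of the 10 costimulatory genes. In CD103 high cells after MDP 5 were lower and 0 higher, where 0.397% of all genes were called lower. Without MDP CD103 low replicate 1, 15 were lower, where 0.915% of all genes were. Of the 26 differences 24 were below 0, with a median of -0.46. Ccr7 had values of 7.41, 7.24 and 7.85 in MDP CD103 high cells, against 9.04, 9.58 and 9.29 in PBS CD103 high cells. The arrays lie far apart, with a difference of -1.80 ± 0.34 (adjusted p = 0.0194). The other 4 were Birc3 and Relb, which stand in both lists, the chemokine gene Ccl5 (-2.24 ± 0.47) and the stress gene Gadd45b (-1.99 ± 0.41), of which Ccl5, Relb and Gadd45b were picked once their values were known. The mean over the 26 genes was 7.05 to 7.19 on the arrays of MDP CD103 high cells and 7.64 to 7.97 on those of PBS CD103 high cells. The part of mature cells in the lower costimulatory values was not tested.

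Other partners of T cells showed fewer calls. Of 15 coinhibitory ligands and receptors, 0 passed over all arrays in limma, with 2 at an unadjusted p under 0.05. For MDP against PBS in CD103 high cells, 2956 of all 22180 genes had an unadjusted p under 0.05, so 2 of 15 is near that share. Pdcd1lg2 had the smallest p there, at -0.50 ± 0.14 (adjusted p = 0.115). Cd274, the gene of the inhibitory ligand PD-L1, was lower without MDP CD103 low replicate 1, at 6.97 ± 0.27 in MDP CD103 high cells and 7.92 ± 0.31 in PBS CD103 high cells (SD, n = 3 each), a difference of -0.95 ± 0.19 (adjusted p = 0.0177). Of 24 other costimulatory genes 0 passed, with 5 at an unadjusted p under 0.05, and the one with the smallest p, Slamf6, a receptor of the SLAM family, differed by -0.31 ± 0.08 (adjusted p = 0.104). Of 5 T cell partners of the 10 molecules 0 passed, with 0 at an unadjusted p under 0.05. Icos had the smallest p there, at -0.48 ± 0.23 (adjusted p = 0.411). Marchf1 and Marchf8, ubiquitin ligases that remove CD86 from the surface, did not pass, with 0 at an unadjusted p under 0.05, and Marchf8 differed by 0.15 ± 0.18.

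Markers of other cells were read beside these values. In CD103 high cells after MDP, 0 of 12 T cell markers passed, and their mean was 4.67 to 4.84 on the arrays of MDP CD103 high cells and 4.75 to 4.91 on those of PBS CD103 high cells. Over all arrays 4 of the 12 had a mean above the background range, Cd5 (6.89), Lat (5.86), Cd6 (5.56) and Cd4 (5.20), and Cd3d, Cd3e and Cd3g, which define T cells, had means within it. Of 11 plasmacytoid dendritic cell markers, Cd300c (-0.96 ± 0.14) and Pacsin1 (-0.77 ± 0.14) were lower, and of 11 B cell markers Fcrla (-0.72 ± 0.10). Over all genes 0.397% were called lower. The mean of the plasmacytoid list was 6.23 on each array of MDP CD103 high cells and 6.36 to 6.49 on those of PBS CD103 high cells, and that of the B cell list 4.97 to 5.00 in MDP CD103 high cells and 5.01 to 5.07 in PBS CD103 high cells. The part of these cells in the lower costimulatory values was not tested.

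In CD103 low cells, no costimulatory gene passed between MDP and PBS. The count in limma was 0 of 10, where 0.00451% of all genes were called. At an unadjusted p under 0.05 in limma were 1 of the 10 and 1343 of all 22180 genes. Cd40 had values of 8.23, 7.31 and 7.12 in MDP CD103 low replicates 1, 2 and 3, against 7.57, 7.58, 8.11 and 7.49 in PBS CD103 low replicates 1, 3, 4 and 6. The first MDP array was above all PBS arrays and the other 2 were below them, and the difference was -0.13 ± 0.24 (adjusted p = 0.945). Cd80 behaved alike, at 10.32, 9.80 and 9.66 in MDP CD103 low cells, against 10.002, 9.89, 9.99 and 9.88 in PBS CD103 low cells, with a difference of -0.01 ± 0.13 (95% interval -0.30 to 0.28). Tnfrsf4 had values of 9.08, 7.13 and 7.12 in MDP CD103 low cells, against 7.001, 7.26, 7.14 and 6.62 in PBS CD103 low cells. Its difference of 0.77 ± 0.37 (adjusted p = 0.814) was 0.12 ± 0.18 without MDP CD103 low replicate 1.

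That array set the direction of much of this comparison. Over all arrays 7 of the 10 differences were above 0, with a median of 0.14, against 0.00 over all genes. Without it 6 were below 0 and the median was -0.04. Cd40 then differed by -0.47 ± 0.19, Cd80 by -0.21 ± 0.10 and Tnfsf9 by -0.20 ± 0.11, each with an adjusted p of 1.00. These 3 and Cd86 then had both MDP arrays below all 4 PBS arrays, 4 of 10 genes, as did 5.32% of all genes. Tnfsf4, near background, was the only one of the 10 above PBS without overlap, both with that array, where 2.98% of all genes were, and without it, where 6.89% were. Its values were 4.66, 4.12 and 4.12 in MDP CD103 low cells, against 4.05, 4.05, 3.35 and 3.52 in PBS CD103 low cells, a difference of 0.56 ± 0.20 (adjusted p = 0.785).

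The difference between the 2 MDP responses, that in CD103 high cells minus that in CD103 low cells, was tested itself. No costimulatory gene passed: the count in limma was 0 of 10, where 0.0721% of all genes were called. At an unadjusted p under 0.05 in limma were 5 of the 10 and 2137 of all 22180 genes. All 10 values were below 0, with a median of -0.49, against -0.01 over all genes. Tnfrsf4 had -1.50 ± 0.55 (adjusted p = 0.395), Tnfsf4 -1.01 ± 0.30 (adjusted p = 0.245), Cd40 -0.69 ± 0.35 (adjusted p = 0.568) and Cd80 -0.61 ± 0.20 (adjusted p = 0.301). Without MDP CD103 low replicate 1 the values were nearer to 0, at -0.84 ± 0.25 for Tnfrsf4, -0.84 ± 0.29 for Tnfsf4, -0.35 ± 0.26 for Cd40 and -0.41 ± 0.14 for Cd80, with adjusted p from 0.323 to 0.797. The lower Cd80 after MDP is therefore not shown to differ between the gates.

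Between the gates after MDP, the mean of all 10 genes was lower in CD103 high cells than in their CD103 low counterparts, and none passed. The count in limma was 0 of 10, where 0.523% of all genes were called. At an unadjusted p under 0.05 in limma were 4 of the 10 and 2255 of all 22180 genes. Tnfrsf4 differed by -1.34 ± 0.40 (adjusted p = 0.220) over all arrays and by -0.68 ± 0.19 (adjusted p = 0.263) without MDP CD103 low replicate 1. The 3 arrays of MDP CD103 high cells, at most 6.56, lay below the 3 of MDP CD103 low cells, at least 7.12, in either case. Icosl, the ligand of ICOS, had values of 8.14, 7.89 and 8.04 in MDP CD103 high cells, against 8.86, 8.21 and 8.20 in MDP CD103 low cells. Its arrays did not overlap, and the difference was -0.40 ± 0.15 (adjusted p = 0.363), or -0.18 ± 0.11 without that array. Tnfsf4 was the third gene with lower, non-overlapping arrays, as were 7.93% of all genes, and 13.4% without that array. The median of the 10 was -0.37, against -0.01 over all genes, and -0.12 without that array, when 9 of 10 were below 0. In the same comparison 4 of 26 genes of mature dendritic cells were lower, where 11 of all 22180 genes were called lower. They were Ccl5 (-2.88 ± 0.47, adjusted p = 0.0221), Zmynd15 (-1.09 ± 0.21, adjusted p = 0.0416), Ccr7 (-1.76 ± 0.34) and the tetraspanin gene Cd63 (-2.36 ± 0.46). Without that array 2 of them, Ccr7 and Ccl5, were lower, where 4 of all 22180 genes were. Sirpa, a marker of type 2 dendritic cells, was lower over all arrays, with a difference of -0.50 ± 0.09, and did not pass without that array.

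Between the gates without MDP, 8 of the 10 costimulatory genes had a higher mean in CD103 high cells, Icosl and Tnfrsf9 a lower one, and none passed. The count in limma was 0 of 10, where 0.0766% of all genes were called. At an unadjusted p under 0.05 in limma were 2 of the 10 and 1889 of all 22180 genes. Cd80 had values of 10.22, 10.45 and 10.12 in PBS CD103 high cells, against 10.002, 9.89, 9.99 and 9.88 in PBS CD103 low cells. All 3 CD103 high arrays were above the 4 CD103 low ones, and the difference was 0.32 ± 0.13 (95% interval 0.03 to 0.61, adjusted p = 0.542). Cd86 also did not overlap, with a difference of 0.05 ± 0.06, and 4.48% of all genes were higher without overlap. Tnfsf4 differed by 0.52 ± 0.20 (adjusted p = 0.520), Cd70 by 0.39 ± 0.27, Cd40 by 0.23 ± 0.24 and Tnfrsf4 by 0.16 ± 0.37, and the arrays of each overlapped. The median of the 10 was 0.13, against 0.00 over all genes, and 8 of 10 were above 0. The comparisons share groups: the PBS CD103 high arrays that were highest for Cd80 are also those against which MDP was compared. Pacsin1 (0.90 ± 0.13), Cd300c (0.90 ± 0.13) and Fcrla (0.75 ± 0.09), lower after MDP, were called higher in PBS CD103 high than in PBS CD103 low cells. Of all 22180 genes, 10 were called higher there. The part of plasmacytoid or B cells in these values was not tested.

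**Figure D3:**
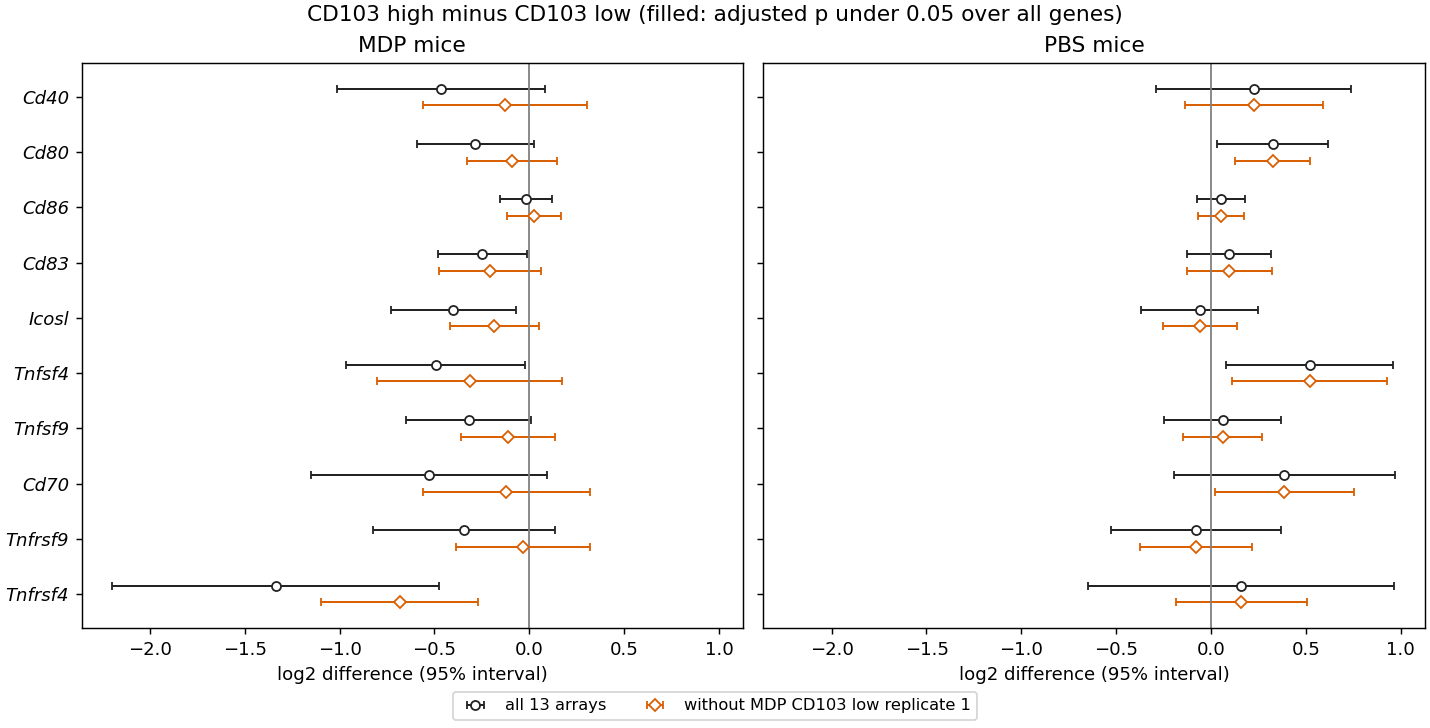
Log2 difference between CD103 high and CD103 low cells (horizontal axis, with 95% intervals) for each costimulatory gene after MDP and after PBS, over all 13 arrays (circles) and without MDP CD103 low replicate 1 (diamonds); no point passed an adjusted p of 0.05. After MDP all 10 circles lie below 0, Tnfrsf4 lowest at -1.34, and after PBS 8 of 10 lie above 0.

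MDP CD103 low replicate 1 was the highest of the 13 arrays for 7 of the 10 costimulatory genes, Cd86, Icosl, Tnfsf4, Tnfsf9, Cd70, Tnfrsf9 and Tnfrsf4, as it was for 12.4% of all genes. Against the mean of the other 2 arrays of its group it was higher by 1.96 for Tnfrsf4, 1.23 for Cd70, 1.01 for Cd40, 0.93 for Tnfrsf9, 0.65 for Icosl, 0.62 for Tnfsf9 and 0.58 for Cd80. Cd86 and Cd83 were only 0.13 and 0.12 higher. The median of the 10 was 0.64, against -0.01 over all genes. Tnfrsf9, the gene of CD137, stood well clear of the background range on this array alone, at 6.11, against 5.15 and 5.21 on the other 2 arrays of the group. The mature dendritic cell genes moved with it, with a mean of 8.67 against 7.61 and 7.63, and Ccr7 was 10.37 against 8.58 and 8.84. So did the TRAF and NF-kB list, at 8.98 against 8.52 and 8.48. The type 1 dendritic cell markers had a mean of 11.14 against 11.07 and 11.04, and their members went both ways. Xcr1 (9.84), Irf8 (12.18), Cadm1 (10.50), Tlr3 (11.58) and Naaa (12.91) were at their lowest of the 13 arrays. Ly75 (9.93), Cd36 (11.01) and Flt3 (10.81) were at their highest. The T cell markers had a mean of 5.06 against 4.85 and 4.87, where Il7r stood at 7.09 in a gene that averaged 4.25 over all arrays. Cd3d at 4.93, its highest over all arrays, Cd3e at 4.74 and Cd3g at 3.65 lay within the background range, and Cd5 at 6.87 above it. Lat at 5.52 and Trat1 at 4.17 were at their lowest of the 13 arrays. The type 2 dendritic cell markers had a mean of 5.88 against 5.50 and 5.51. Cd7 at 7.62, Irf4 at 6.18 and Sirpa at 6.01 were at their highest of the 13 arrays. Itgam at 5.05 and Mgl2, near background, at 3.67 were below their means over all arrays, 5.19 and 3.83. Each of the other markers of that list was above its own mean, Clec12a barely, at 10.11 against 10.10. The monocyte and macrophage markers had a mean of 6.88 against 6.66 and 6.67. Their members went both ways: Ccr2 at 7.37 and Vcam1 at 7.21 were at their highest of the 13 arrays. Cd68 at 10.05 and Adgre1 at 5.05 were at their lowest. The part of such cells in the values of this array was not tested.

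**Figure D4:**
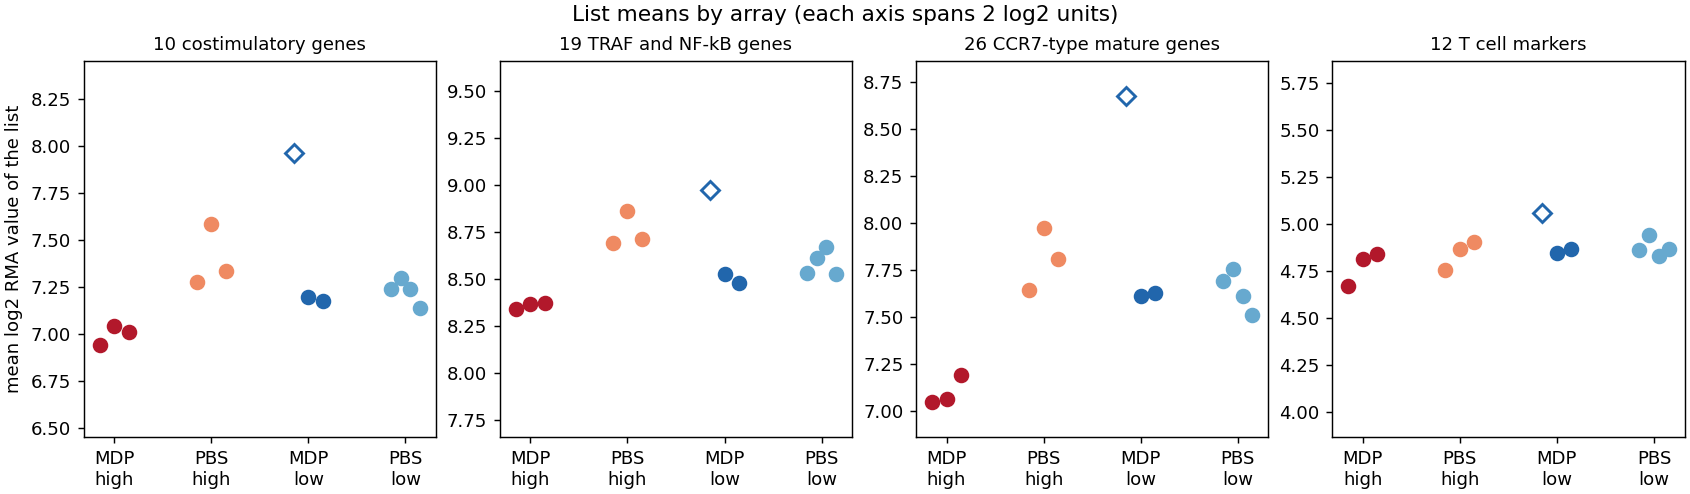
Mean log2 RMA value of 4 gene lists on each array, by treatment and CD103 gate; each vertical axis spans 2 log2 units, and the open diamond is MDP CD103 low replicate 1. The 10 costimulatory genes, the TRAF and NF-kB genes and the mature dendritic cell genes are lowest in MDP CD103 high cells and highest on that array, at 7.96, 8.98 and 8.67, while the T cell markers span 4.67 to 5.06.

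The genes whose values ran most like those of each costimulatory gene were found over the 13 arrays among 10997 genes above the background range, as a description of arrays that share groups and, in part, replicate numbers. For Cd40 they were Cd274, Tnfaip3 and Syngr2, with Pearson r of 0.955, 0.934 and 0.932. For Cd80 they were Cd274, Mab21l3 and Syngr2, with r of 0.954, 0.948 and 0.931. The PD-L1 gene thus headed both, with r of 0.945 and 0.952 over the 12 arrays without MDP CD103 low replicate 1. Tnfrsf4 ran most like Tnfrsf1b, Insl6 and Papss2, with r of 0.979, 0.978 and 0.977, which were 0.924, 0.909 and 0.929 over 12 arrays. Icosl ran most like Lgmn, a lysosomal protease gene, with r of 0.968, or 0.896 over 12 arrays. For Cd86 the first was Rai1 (0.906), for Cd83 Rpl34-ps2 (0.946), for Tnfsf9 Rasa4 (0.934), for Tnfsf4 Arf4 (0.877), for Cd70 Kif13b (0.945) and for Tnfrsf9 Itga3 (0.940).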

How the data were processed

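RNA of 13 sorted samples was pre-amplified, labelled with biotin and hybridised to Mouse Gene 2.0 ST arrays, per the labels. The deposited log2 value of each probe set was made by the authors in Affymetrix Expression Console with RMA, per the submitters' processing notes; for its version and the genome build, the sources used here give nothing. RMA makes the distributions of arrays alike, so a shift shared by most genes is removed. Of 41345 probe sets, 23521 listed with 1 symbol gave 22180 genes, with the highest-mean probe set per gene.

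The fit used limma 3.58.1 in R 4.3.3 on all 13 arrays, with 1 mean per group and eBayes. The 5 contrasts were tested two-sided with Benjamini-Hochberg over all genes, at an adjusted p of 0.05. The fit was run on simulated data as a check of the code alone. Those data held independent arrays, without pairing and without an array that stood apart. Tables used pandas 2.3.3 and numpy 2.4.6, plots matplotlib 3.10.9.

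The members, lists and naming rules were chosen with earlier results of these data known. All 10 members were named. Of each list, up to 2 higher and 2 lower genes with the smallest p past the threshold, or the 1 with the smallest p, were picked per comparison. Not all genes picked in this way are given in the text. Itgae, Cd8a, Ly75, Nod2 and Ccr7 were always named; Nod2 averaged 6.68 in MDP and 6.69 in PBS CD103 high cells, and 6.80 in MDP and 6.64 in PBS CD103 low cells. Likeness names the 3 genes with the highest r. Lists were described by counts, and no set test was run. Traf3 and Nfkb1 had no probe set of their own.

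Replicate numbers recur across groups. Within a treatment, the deviations of same-numbered arrays from their group means correlated at 0.196 to 0.372 in all 4 pairs, which also shared the side of Xist. Across treatments 5 pairs gave -0.236 to 0.450. The numbers may thus pair arrays within a treatment, but the labels state no pairing. The main fit held no block, so its p-values leave such pairing out. In limma with the block within treatment, Cd80 was not called (adjusted p = 0.0534). Natural killer and monocyte markers had 0 calls in any contrast. Alternatives were replicate blocks, leaving out arrays, fitting only the groups compared, a variance trend, a filter on dim genes, the mean of probe sets and Xist as a covariate; leaving out a second array, and the block without MDP CD103 low replicate 1, were chosen after seeing the data.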

Additional observations from a re-analysis of the deposited data

Results flagged for a closer look

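Cd40 was 8.11 in PBS CD103 low replicate 4, far from the other 3 arrays of its group, which lay between 7.49 and 7.58. The gap to the nearest array took 0.858 of the range of the group, above Dixon's 95% critical value for 4 arrays. The 10 costimulatory genes were each tested in this group of 4, and chance marks about 1 in 20 such groups. The groups of 3 arrays, MDP CD103 low among them, were not tested in this way.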

How the results depend on the processing

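The number of costimulatory genes past the threshold between MDP and PBS in CD103 high cells was 1 over all arrays. It was 0 with the replicate number within treatment as a block, 0 with only the groups compared and 0 with Xist as a covariate, and 3 without MDP CD103 low replicate 1 with that block. It was 0 to 3 leaving out 1 array and 1 to 3 leaving out MDP CD103 low replicate 1 and another array. Cd80 differed by -0.60 with the block within treatment, where its adjusted p was 0.0534. In the other 4 comparisons the count was 0 to 0 leaving out 1 array. Leaving out 1 array, the median over the 10 genes ranged from -0.48 to -0.29 for MDP against PBS in CD103 high cells, -0.04 to 0.21 in CD103 low cells, -0.51 to -0.12 between the gates after MDP, 0.05 to 0.22 without MDP, and -0.61 to -0.33 for the difference of responses. Some differences that did not pass turned direction. With the block within treatment these were Tnfsf9 in CD103 low cells after MDP, at -0.0068, and Tnfrsf9 in CD103 high cells after MDP, at 0.0049. Leaving out 1 array, MDP against PBS in CD103 low cells ranged from -0.47 to 0.082 for Cd40, -0.21 to 0.12 for Cd80, -0.063 to 0.0021 for Cd86, -0.023 to 0.30 for Icosl, -0.20 to 0.13 for Tnfsf9 and -0.075 to 0.40 for Tnfrsf9. Tnfrsf9 ranged from -0.15 to 0.16 in CD103 high cells after MDP, also with MDP CD103 low replicate 1 left out throughout, and from -0.43 to 0.046 in the difference of responses. Between the gates, Cd86 ranged from -0.040 to 0.025 after MDP, and Icosl from -0.11 to 0.011, Tnfsf9 from -0.015 to 0.11 and Tnfrsf4 from -0.024 to 0.25 without MDP. The causes were not tested. The number of all genes called was 403 for MDP against PBS in CD103 high cells, 82 to 594 leaving out 1 array, 200 with only the groups compared, 609 with the variance trend and 699 above the background range. Between the gates it was 116 after MDP, 0 to 140 leaving out 1 array, 0 with only the groups compared, 190 with the block within treatment, 192 with the trend, 228 above the background range and 42 with Xist; without MDP it was 17, 2 to 23 leaving out 1 array and 1 with only the groups compared. In CD103 low cells it was 1, 2 with either block, 0 with only the groups compared, 0 with the trend and 0 to 2 leaving out 1 array. For the difference of responses it was 16, 27 with the block by number, 41 with that within treatment, 116 with the trend, 134 above the background range, 0 with Xist and 0 to 107 leaving out 1 array. The block changed no other call of a costimulatory gene. Tnfsf4 and Cd70 lie near background, so little can be read from their values.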
